A study of Mus musculus with 6 samples.

Results

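Gad1, Gad2, Slc32a1, Dlx1, Dlx6os1, Lhx6 and Adarb2 are 7 genes of the making and packing of GABA and of interneuron identity, among the 20234 genes of a UMI count table of single cells from hippocampal CA1. They were taken by name from the table and followed over barcodes with more than 500 and up to 8000 detected genes and at most 40% mitochondrial UMIs, of which there were 1632. The genes were followed through 3 questions, namely in which cells they were found together, how much of them was seen in glutamatergic cells and glia, and which share of the cells of each mouse was positive. All 7 were detected in retained cells, from 22 UMIs in all for Lhx6 to 789 for Gad2. Of the 7, 6 had enough UMIs for the test across genes, and Lhx6 did not.

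GABA, the main inhibitory transmitter of the hippocampus, is made from glutamate by glutamate decarboxylase, whose 2 forms are the products of Gad1 and Gad2. Slc32a1 encodes the transporter that loads GABA into synaptic vesicles. Interneurons of the hippocampus are born in the ganglionic eminences of the embryo. Dlx1 encodes a homeodomain transcription factor of that lineage, and Dlx6os1 is a long noncoding RNA of the Dlx5 and Dlx6 locus. Lhx6 encodes a LIM homeodomain factor known from interneurons of the medial ganglionic eminence. Adarb2 encodes a member of the adenosine deaminase family of RNA-binding proteins, used as a marker of interneurons of the caudal ganglionic eminence. Of the interneuron genes, then, Dlx1 and Lhx6 encode transcription factors, while Dlx6os1 encodes no protein and Adarb2 is not a transcription factor gene.

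Cells of CA1 were taken from 3 mice given placebo and 3 given EPO. They were profiled by Drop-seq, where a cell and a barcoded bead meet in a droplet and every captured poly(A) RNA receives the barcode and a unique molecular identifier (UMI). All were male C57Bl6 mice of postnatal day 28, given 1 injection of placebo or of 5000 IU/kg recombinant human EPO, the hormone erythropoietin, and killed 6 h later. Placebo mice 1, 3 and 5 kept 275, 90 and 319 cells, and EPO mice 2, 4 and 6 kept 253, 405 and 290 cells. Their summed UMIs ran from 267231 in placebo mouse 3 to 2150763 in EPO mouse 4, with a median of 1965 to 2965 UMIs per cell and of 4.61% to 19.0% mitochondrial UMIs. The labels add D1 (placebo mice 1 and 3, EPO mouse 2) or D2 (placebo mouse 5, EPO mice 4 and 6), without saying what it marks. Each sample is 1 mouse, and p-values over mice set the difference between the groups against the variation between these 6 mice.

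Placebo mouse 1 and EPO mouse 4 shared 41 retained barcodes, and no other pair of mice shared any. The 2 profiles of a shared barcode correlated with a median of 0.712 over genes on a log scale, against 0.343 between the same placebo cells and the other cells of EPO mouse 4. All 41 held more UMIs in placebo mouse 1, and all 41 pairs fell into the same class. None of them was GABAergic-like. They carried 12 UMIs of the 7 genes in placebo mouse 1 and 1 UMI in EPO mouse 4, and the comparisons of EPO with placebo are also given without them.

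To say what a positive cell was without using the genes themselves, the cells were clustered with all 7 genes left out of the clustering, and clusters were named from 16 other GABAergic markers and from markers of further types. One of 14 clusters, with 79 cells, was GABAergic-like. It held 4.84% of the retained cells, with a median of 2839 UMIs per cell and 18.5% mitochondrial UMIs. Among its 16 markers Reln and Nxph1 were each found in 32.9% of its cells, Npy in 27.8%, Sst in 17.7%, Vip in 19.0% and Pvalb in 11.4%, against at most 1.42% of all other cells for any of these. Transcripts of other cell types were found there too. Mbp, a myelin gene, was in 30.4% of GABAergic-like and 44.9% of glutamatergic-like cells, and the part of such transcripts in the values below was not tested. Although they had no part in the clustering, Gad2, Gad1, Dlx6os1, Adarb2, Slc32a1 and Dlx1 were 6 of the 10 leading genes of this cluster. Slc17a7, which encodes a vesicular glutamate transporter, was found in 2.53% of these cells and in 40.5% of the 847 glutamatergic-like cells. The other classes were 232 astrocyte-like, 162 oligodendrocyte-like, 98 microglia-like, 91 endothelial-like, 72 oligodendrocyte precursor (OPC)-like and 51 mural-like cells.

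**Figure D1:**
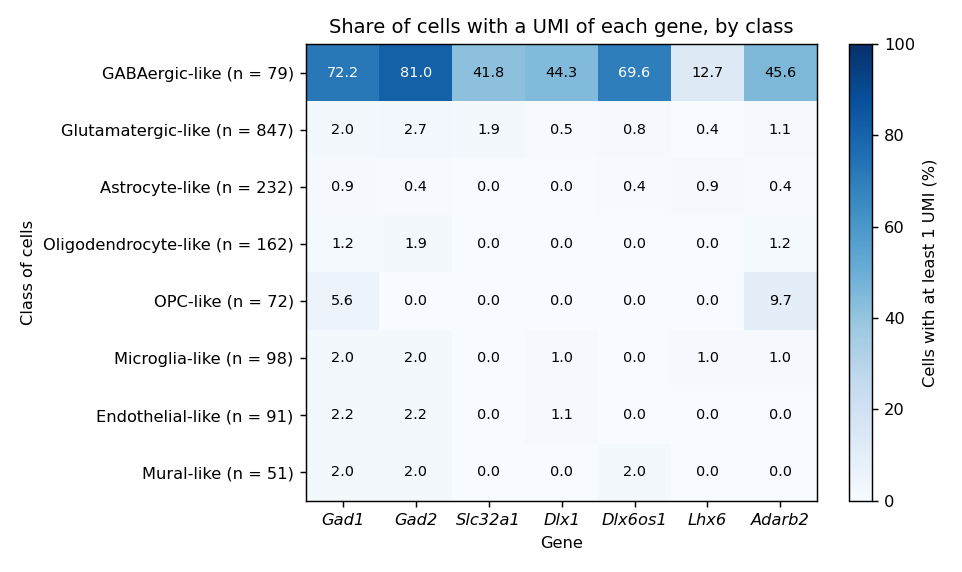
Percentage of cells with at least 1 UMI of each gene (columns) in each class of cells (rows, n in cells, all mice pooled). The GABAergic-like row runs from 12.7% for Lhx6 to 81.0% for Gad2, and no other class exceeds 9.72%, the value of Adarb2 in OPC-like cells.

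The 2 genes of GABA synthesis were the most widely detected. Gad2 (chromosome 2 of GRCm38, from 22622205 to 22693874, plus strand) was found in 64 of 79 GABAergic-like cells, or 81.0% with an exact (Clopper-Pearson) 95% confidence interval of 70.6% to 89.0%. Gad1 (chromosome 2, from 70553072 to 70602014, plus strand) was found in 57 of these cells, or 72.2% (60.9% to 81.7%). These intervals cover counting error only, since cells of 1 mouse share their source. Of the UMIs in retained cells, the GABAergic-like cluster held 95.2% for Gad2 and 90.8% for Gad1. A positive GABAergic-like cell held a median of 4 UMIs of Gad2 and 3 UMIs of Gad1, and the highest counts in a cell were 85 and 45. Both genes are protein coding, and the genes of GENCODE vM21 that overlap them, Gad1os for Gad1 and a pair of microRNA genes for Gad2, share no exon base with them.

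Slc32a1, the vesicular GABA transporter, was detected in fewer of the same cells. Its gene lies on chromosome 2 from 158610767 to 158615748 on the plus strand, and 697 of its exon bases are shared with the antisense gene Gm14205. Slc32a1 was found in 33 of the 79 GABAergic-like cells, or 41.8% (30.8% to 53.4%), with a median of 2 UMIs in a positive cell. This cluster held 85.5% of its UMIs. All of its other UMIs were in glutamatergic-like cells, and it had 0 UMIs in astrocyte-like, oligodendrocyte-like, OPC-like, microglia-like, endothelial-like and mural-like cells. For the 72 OPC-like cells a count of 0 allows a share of up to 4.17%, which limits cells with a UMI at their median depth of 1948 UMIs and not cells that express the gene.

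Dlx1 and Dlx6os1 belong to the Dlx program of interneuron precursors. Dlx1 (chromosome 2, from 71528113 to 71533981, plus strand) was found in 35 of 79 GABAergic-like cells, or 44.3% (33.1% to 55.9%), and the cluster held 94.6% of its UMIs. Dlx6os1 (chromosome 6, from 6820189 to 6871592, minus strand) was found in 55 cells, or 69.6% (58.2% to 79.5%), and the cluster held 94.6% of its UMIs too. The detection of Dlx6os1 was thus closer to that of the 2 decarboxylase genes than to that of Dlx1. Both genes were counted in the same cells, pooled over mice, so their intervals are not a test of this difference. Dlx6os1 was found in more of these cells than Dlx1 in placebo mouse 5 and in EPO mice 2, 4 and 6. In placebo mouse 1 Dlx1 was found in 4 and Dlx6os1 in 3 of 6 cells, and in placebo mouse 3 each was found in 1 of 2. Dlx1 shares 335 exon bases with the antisense gene Dlx1as. Dlx6 lies within Dlx6os1 on the other strand and shares no exon base with it. Whether the counting used strand is not given in the sources used here, so reads of each such pair cannot be told apart with certainty. Dlx6 itself, a homeodomain factor gene, had 42 UMIs in retained cells and was found in 30.4% of GABAergic-like and 0.193% of all other cells.

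Lhx6 and Adarb2, which mark different birthplaces of interneurons, differed in level, and Lhx6 was the lowest of the 7. Lhx6 (chromosome 2, from 36081953 to 36105408, minus strand) was found in 10 of 79 GABAergic-like cells, or 12.7% (6.24% to 22.0%), and the cluster held 16 of its 22 UMIs. Adarb2 (chromosome 13, from 8202866 to 8768747, plus strand) was found in 36 of these cells, or 45.6% (34.3% to 57.2%), and the cluster held 87.8% of its UMIs. No retained cell held more than 2 UMIs of Lhx6. Thus for Lhx6 an absent UMI says little about a single cell.

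The promoters of Dlx6os1, Adarb2 and Lhx6 are shown because, as described below, Dlx6os1 and Adarb2 were the pair with the highest correlation of detection and Lhx6 and Adarb2 the pair never found together in GABAergic-like cells. The windows run from 250 bases before to 50 bases after the start in RefSeq on GRCm38.p6, where all 7 genes matched by symbol, with 10 promoters in all. Capitals mark TAATTA, the palindromic core that many homeodomain proteins bind, which reads the same on both strands. It is in 3 of the 10 windows, 2 of Dlx6os1 and 1 of Adarb2, and in 5.29% of all 32851 promoters of this length. The first window of Dlx6os1 holds it 2 times, beginning at bases -130 and -74 from the start, and 0.49% of all promoters hold it at least 2 times. In Adarb2 it begins at base -51. The 3 windows of Lhx6 do not hold these letters. A match is a description of the sequence and not a binding site measured here. The shares over all promoters were not matched for GC content, and a link of these letters with detection was not tested. The GC content is 35.7% for the first window of Dlx6os1, 52.7% for Adarb2 and 63.3% for the first of Lhx6, beside a median of 52.7% for all promoters.
Dlx6os1, chr6:6869484-6869783, minus strand: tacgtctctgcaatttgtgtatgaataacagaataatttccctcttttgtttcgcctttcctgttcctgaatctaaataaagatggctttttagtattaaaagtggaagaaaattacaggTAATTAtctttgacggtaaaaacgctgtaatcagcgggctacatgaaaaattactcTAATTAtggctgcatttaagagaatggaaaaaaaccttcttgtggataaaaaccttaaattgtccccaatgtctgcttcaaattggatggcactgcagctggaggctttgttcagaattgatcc
Adarb2, chr13:8202616-8202915, plus strand: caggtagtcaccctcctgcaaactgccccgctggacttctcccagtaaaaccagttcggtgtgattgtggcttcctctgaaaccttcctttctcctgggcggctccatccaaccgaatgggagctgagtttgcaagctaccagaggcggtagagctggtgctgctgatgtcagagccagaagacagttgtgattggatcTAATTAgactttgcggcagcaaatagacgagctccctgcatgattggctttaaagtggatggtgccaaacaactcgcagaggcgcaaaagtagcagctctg
Lhx6, chr2:36105359-36105658, minus strand: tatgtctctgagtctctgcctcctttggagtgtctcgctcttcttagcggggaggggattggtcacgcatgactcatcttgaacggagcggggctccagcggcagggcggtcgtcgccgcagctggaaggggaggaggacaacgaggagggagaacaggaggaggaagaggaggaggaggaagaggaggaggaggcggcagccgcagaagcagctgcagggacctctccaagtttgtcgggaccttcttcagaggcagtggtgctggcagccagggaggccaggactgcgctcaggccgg

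In glutamatergic-like cells each of the 7 genes, pooled over the mice, lay below its level in barcodes too poor to count as cells. In glutamatergic-like cells, with a median of 3682 UMIs per cell and thus more depth than the GABAergic-like cells, Gad2 was found in 2.72%, Gad1 in 2.01%, Slc32a1 in 1.89%, Adarb2 in 1.06%, Dlx6os1 in 0.826%, Dlx1 in 0.472% and Lhx6 in 0.354% of 847 cells. Together the 7 genes made up 20.6 of 1000000 UMIs (CPM, on that scale throughout) in glutamatergic-like and 20.7 CPM in non-neuronal cells, against 5059 CPM in GABAergic-like cells. Barcodes with at most 500 genes, which can hold RNA not caught in a cell, carried 137 CPM, and between 98.1 CPM (placebo mouse 5) and 171 CPM (EPO mouse 6) in the single mice. The shares in glutamatergic-like cells are not read as expression here. Whether they stand for expression or for loose RNA was not tested. In EPO mouse 4 Slc32a1 was at 7.66 CPM in glutamatergic-like cells (11 UMIs) against 4.74 CPM in the poor barcodes (1 UMI). Dlx1 was at 0.697 CPM (1 UMI) in EPO mouse 4 and at 1.65 CPM (2 UMIs) in EPO mouse 6, against 0 CPM in both. Lhx6 was at 1.39 CPM (2 UMIs) in EPO mouse 4, also against 0 CPM in the poor barcodes. The 62 glutamatergic-like cells with a UMI of any of the 7 genes had a median of 7957 UMIs in all, against 3528 in those without, and 48 of the 62 held exactly 1 such UMI.

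**Figure D2:**
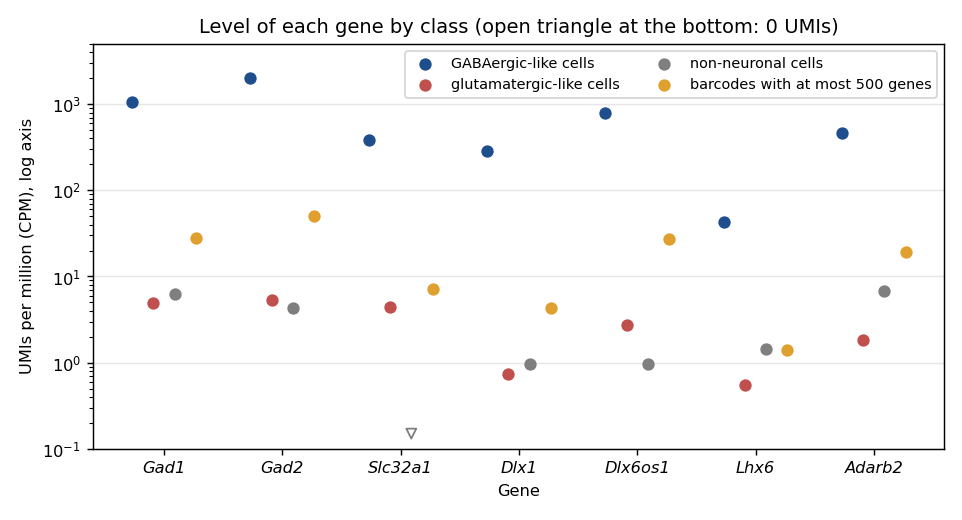
Level of each gene in CPM (log axis) in GABAergic-like cells, glutamatergic-like cells, non-neuronal cells and barcodes with at most 500 genes, all mice pooled. Each GABAergic-like point lies above the other 3 points of its gene, and Slc32a1 has 0 UMIs in non-neuronal cells (open triangle).

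The make-up of the UMIs of the 7 genes was not the same in each set of cells or barcodes. Of the UMIs of the 7 genes, Slc32a1 made up 7.56% in GABAergic-like cells and 5.18% in barcodes with at most 500 genes, but 21.4% in glutamatergic-like cells. Gad2, in turn, made up 40.0% in GABAergic-like cells and 25.9% in glutamatergic-like cells. One cell of EPO mouse 4 held 24 of the 112 such UMIs in glutamatergic-like cells, with 11 of Gad1, 8 of Slc32a1, 3 of Gad2 and 1 each of Dlx6os1 and Lhx6. It had 32005 UMIs in all, 2 of Pvalb and 4 of Nxph1, but also 3 of Slc17a7 and 16 of Camk2a, and was not called a doublet. Without it, Slc32a1 made up 18.2% of these UMIs in glutamatergic-like cells, 16 of 88. The 16 Slc32a1-positive glutamatergic-like cells came from placebo mouse 1, EPO mouse 4 and EPO mouse 6. At these counts the difference was given no test.

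The share of glutamatergic-like cells with a UMI of any of the 7 genes was 7.32%, and it differed between mice. It was 8.0%, 3.85% and 3.08% in placebo mice 1, 3 and 5 and 4.32%, 9.66% and 12.3% in EPO mice 2, 4 and 6. The exact 95% intervals were 1.14% to 6.58% in placebo mouse 5 and 7.54% to 18.5% in EPO mouse 6. In barcodes with at most 500 genes the 7 genes were at 151, 121 and 98.1 CPM in placebo mice 1, 3 and 5. They were at 138, 133 and 171 CPM in EPO mice 2, 4 and 6. The order of the mice was not the same in both, since EPO mouse 4 lay below EPO mouse 2 and placebo mouse 1 in these barcodes. A link between the 2 values was not tested. When every cell was thinned to 800 UMIs, the share of glutamatergic-like cells with such a UMI was 1.42%. Without the shared barcodes it was 6.94%.

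In OPC-like cells, pooled over the mice, Adarb2 was at a higher level than in glutamatergic-like cells. This pooled level lay above that of the barcodes of at most 500 genes in each mouse. Its counting interval, though, took in the values of EPO mouse 4 and placebo mouse 3. OPC-like cells were not compared with these barcodes within single mice. It was found in 7 of 72 cells, or 9.72% (4.00% to 19.0%), with 10 UMIs, at 50.3 CPM (exact Poisson interval for counting error 24.1 to 92.4) against 1.84 CPM (0.884 to 3.39) in glutamatergic-like cells. The 7 cells came from 4 mice, held 1 to 3 UMIs of Adarb2 and had no second of the 7 genes. Gad1 was found in 4 OPC-like cells (5.56%, 1.53% to 13.6%) with 1 UMI each, while Gad2, Slc32a1, Dlx1, Dlx6os1 and Lhx6 had 0 UMIs in this class. OPC-like cells had a median of 1948 UMIs, fewer than the glutamatergic-like cells. In barcodes with at most 500 genes Adarb2 was at 19.1 CPM over all mice and at 8.17 to 37.9 CPM in the single mice. The highest value was that of EPO mouse 4, which gave 23 of the 72 OPC-like cells, and it and the 24.3 CPM of placebo mouse 3 lay within the interval for OPC-like cells. Gad1 was at 27.7 CPM against 20.1 CPM (5.48 to 51.5) in OPC-like cells.

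Most GABAergic-like cells held several of the genes at once. UMIs of at least 2 of the 7 were found in 70 of 79 cells, or 88.6% (79.5% to 94.7%), of at least 3 in 59 cells, and of 6 in 14 cells, while no cell held all 7. UMIs of none were found in 4 cells, with a median of 2363 UMIs. One of these, in placebo mouse 3, had 4357 UMIs in all and 3 of Camk2a. Camk2a was found in 39.2% of GABAergic-like cells. Whether the cells without any of the 7 genes are interneurons was not tested. Among 847 glutamatergic-like cells 10 held at least 2 of the genes (1.18%, 0.568% to 2.16%), and among all other classes no cell did. Of those 10, 8 also held UMIs of Slc17a7, Slc17a6, Neurod6 or Camk2a, genes of glutamatergic neurons, and 2 were among the shared barcodes. The other 2, both of EPO mouse 6, had 1338 and 1232 UMIs in all, none of these 4 genes, and either 3 UMIs of Vip or 1 of Npy.

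Detection rose with depth. The 40 GABAergic-like cells at or below the median depth held a median of 3 of the genes, and the 39 above it held a median of 5. Slc32a1 was found in 17.5% of the former and 66.7% of the latter, Dlx1 in 27.5% and 61.5%, Gad1 in 55% and 89.7%, and Gad2 in 75.0% and 87.2%. Thinned to 800 UMIs, 47 of 78 GABAergic-like cells (60.3%) and 1 of 844 glutamatergic-like cells (0.118%) held at least 2 of the genes.

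Over all retained cells each pair was found together far more often than the product of its shares gives, with the exception of Lhx6 and Adarb2. The GABAergic-like cluster held 62.5% (Lhx6) to 85.9% (Dlx6os1) of the positive cells of a gene. Gad1 and Gad2 were found together in 53 cells where the product of their shares gives 5.12, and Lhx6 and Adarb2 in 1 cell against 0.549. Within the GABAergic-like cells the pairs were closer to the product. Gad1 and Gad2 were found together in 50 cells against 46.2 (phi coefficient, the correlation of yes or no, 0.28 over 79 cells), and Gad2 with Dlx6os1 in 47 against 44.6 (phi 0.17). Slc32a1 with Dlx1 had a phi of 0.33 and Slc32a1 with Gad1 one of 0.30. Dlx6os1 and Adarb2 had the highest phi, 0.44, with 33 of the 36 Adarb2-positive cells also positive for Dlx6os1. Lhx6 and Adarb2 had the lowest, -0.35, with 0 cells positive for both where the product gives 4.56. All pairs share the depth of the cells, and the cells come from 6 mice, so no p is given.

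**Figure D3:**
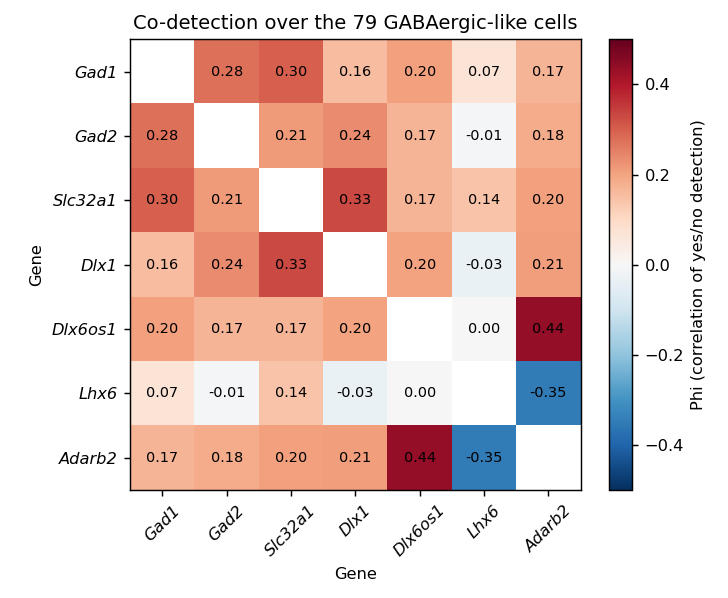
Phi coefficient of detection (at least 1 UMI) between each pair of genes over the 79 GABAergic-like cells, with the value in each field. Dlx6os1 with Adarb2 has the highest value (0.44) and Lhx6 with Adarb2 the lowest (-0.35).

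The 2 lineage genes were not found in the same GABAergic-like cell. Of the 79 GABAergic-like cells, 36 held Adarb2 only, 10 held Lhx6 only and 33 held neither. Their median depths were 4093, 4783 and 2221 UMIs. Adarb2-only cells were found in all 6 mice, with 2, 1 and 12 in placebo mice 1, 3 and 5 and 6, 12 and 3 in EPO mice 2, 4 and 6. Lhx6-only cells came from 3 mice, with 4 in placebo mouse 5 and 3 each in EPO mice 4 and 6, all of which carry D2.

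Other interneuron genes, chosen here after their values were seen, differed in some cases between the 2 sets of cells and in others did not. Sst, the gene of the peptide somatostatin, was found in 3 of 10 Lhx6-only and 1 of 36 Adarb2-only cells, and Pvalb, which encodes parvalbumin, in 4 and 1. Satb1, a chromatin regulator gene of this lineage, was found in 4 of 10 and 4 of 36, and Nxph1 in 7 of 10 and 7 of 36. On the other side Vip, the gene of vasoactive intestinal peptide, was found in 12 of 36 Adarb2-only and 0 of 10 Lhx6-only cells, and Ndnf in 10 and 0. Cnr1, which encodes the cannabinoid receptor of these terminals, was found in 27 of 36 and 2 of 10, Prox1 in 16 and 1, and Dlx6 in 18 and 1. Reln (3 of 10 and 14 of 36), Npy (2 and 14), Lamp5 (2 and 8) and Maf (7 and 21) were found in both sets. With 10 cells, a count of 0 allows a large share, and cells with neither gene held Sst in 10 and Vip in 3 of 33. Gad1 was found in 8 of 10 Lhx6-only and 29 of 36 Adarb2-only cells, and Gad2 in 8 and 32.

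**Figure D4:**
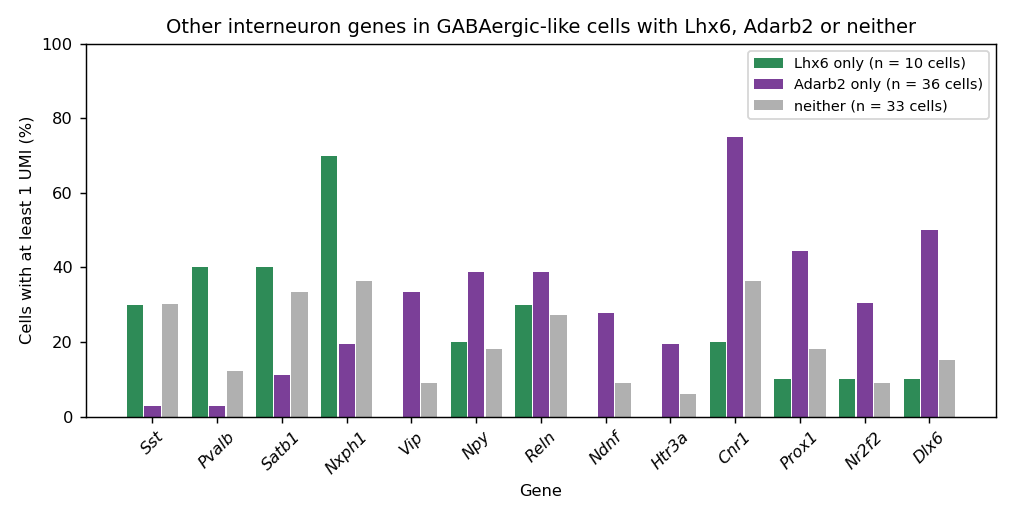
Percentage of GABAergic-like cells with at least 1 UMI of further interneuron genes, for cells with Lhx6 only (n = 10), Adarb2 only (n = 36) and neither (n = 33). Nxph1, at 70.0%, stands highest among Lhx6-only cells, and Cnr1, at 75.0%, among Adarb2-only cells.

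Outside the 7 genes, those most alike in where they were detected were ranked by phi with the 80 retained cells that held at least 2 of the 7, among 13781 genes seen in at least 10 cells. Igf1 (phi 0.50), an insulin-like growth factor gene, Col19a1 (0.49), a collagen gene, and Dlx6 (0.48) came first. Grik1 (0.44), a kainate receptor subunit gene, Reln (0.40), Nxph1 (0.40), Rbms3 (0.40), Btbd11 (0.39), Npy (0.38) and Maf (0.37) completed the first 10. Igf1 was found in 26 of 79 GABAergic-like cells and 35 retained cells in all, while Maf was found in 46 and 154. Of the 7 genes themselves, Dlx6os1 had the highest phi (0.80), which is fixed in part by its own place among the 7, and Lhx6 the lowest (0.32).

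Whether EPO changed these genes was asked first by the share of positive cells per mouse, which is shown in the plot of shares by mouse. Placebo mice 1, 3 and 5 had Gad2 in 2.91%, 1.11% and 7.84% of their cells, and EPO mice 2, 4 and 6 in 4.35%, 6.42% and 8.62%. The mean was 3.95% ± 3.48 for placebo and 6.46% ± 2.14 for EPO (± SD over 3 mice), and a two-sided exact permutation test gave p = 0.3. The groups overlapped, since placebo mouse 5 lay above 2 of the EPO mice. Gad1 was found in 4.73%, 1.11% and 6.58% of placebo and 4.35%, 6.42% and 5.17% of EPO cells in the same order, with means of 4.14% ± 2.78 and 5.31% ± 1.04 (exact permutation p = 0.7, n = 3 mice each). The smallest p that 3 mice against 3 allow is 0.1.

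**Figure D5:**
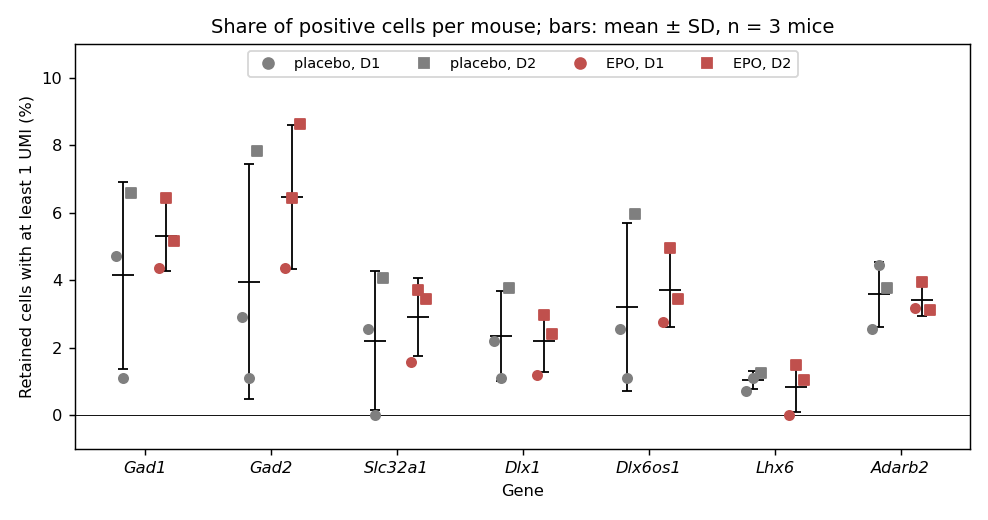
Percentage of retained cells with at least 1 UMI of each gene in each mouse (points; circles D1, squares D2), with mean and SD of 3 placebo (grey) and 3 EPO (red) mice. For every gene the placebo and EPO points overlap, and for every gene but Adarb2 the placebo mouse of D2 lies above both placebo mice of D1.

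For the transporter and the lineage genes the groups overlapped as well. Placebo mice 1, 3 and 5 had Slc32a1 in 2.55%, 0% and 4.08% of their cells, and EPO mice 2, 4 and 6 in 1.58%, 3.70% and 3.45%. Dlx6os1 was found in 2.55%, 1.11% and 5.96%, and in 2.77%, 4.94% and 3.45%. Dlx1 was found in 2.18%, 1.11% and 3.76%, and in 1.19%, 2.96% and 2.41%. Placebo mouse 3 was lowest among the placebo mice in each of these 3. Adarb2 was the most even, with 2.55%, 4.44% and 3.76% after placebo and 3.16%, 3.95% and 3.10% after EPO. Lhx6 was found in 0.727%, 1.11% and 1.25%, and in 0%, 1.48% and 1.03%. Exact permutation tests over the mice gave p between 0.7 and 1 for these 5 genes (two-sided, n = 3 mice each, 7 genes tested, p = 1 for each after Benjamini-Hochberg adjustment of all 7). For 0 of the 7 genes did the groups not overlap, beside 9.21% of the 13781 genes seen in at least 10 cells. Leaving out the shared barcodes, which was added once the data had been seen, the differences ran from -0.18 for Dlx1 to 2.87 percentage points for Gad2, and their p from 0.3 to 0.9 in the same exact permutation test. That of Slc32a1 moved from 0.704 to 1.26 percentage points. Those of Lhx6 and Adarb2 moved towards 0, from -0.192 to -0.0365 and from -0.179 to -0.0364 percentage points.

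The share of GABAergic-like cells showed the same pattern over the mice. It was 2.18%, 2.22% and 7.21% in placebo mice 1, 3 and 5 and 3.95%, 5.43% and 5.52% in EPO mice 2, 4 and 6, with 6, 2, 23, 10, 22 and 16 cells. Placebo averaged 3.87% ± 2.89 and EPO 4.97% ± 0.880 (± SD over 3 mice), with p = 0.6 in a two-sided exact permutation test. Within D1 the EPO mouse lay 1.75 percentage points above the placebo mice, and within D2 the EPO mice lay 1.74 percentage points below the placebo mouse (-1.74). The mean of the 2 differences was 0.0076 percentage points. Among GABAergic-like and glutamatergic-like cells alone, the GABAergic-like share was 4.58%, 7.14% and 10.6% in placebo mice 1, 3 and 5. It was 6.71%, 9.61% and 9.36% in EPO mice 2, 4 and 6. There EPO mouse 2 lay between placebo mice 1 and 3, the placebo mice of D1. Cells in which 2 or more of the 7 genes were detected made up 2.91%, 1.11% and 7.21%, and 3.56%, 5.43% and 5.86%, and differed by 1.55 percentage points within D1 and -1.56 within D2. Counting only cells with more than 1000 genes, the difference in the share of GABAergic-like cells was -0.452 percentage points in place of 1.10. Without placebo mouse 5 it was 2.77 percentage points, without placebo mouse 1 it was 0.251 and without placebo mouse 3 it was 0.271.

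Within the GABAergic-like cells, Dlx1 was the gene for which the groups did not overlap. It was found in 4 of 6, 1 of 2 and 12 of 23 such cells of placebo mice 1, 3 and 5 and in 3 of 10, 10 of 22 and 5 of 16 of EPO mice 2, 4 and 6. The mean share was 56.3% ± 9.06 for placebo and 35.6% ± 8.58 for EPO (± SD over 3 mice). The count is 1 of 7 genes, beside 7.55% of the 4784 genes found in at least 10 of these cells, and the placebo share of mouse 3 rests on 2 cells. The level of Dlx1 in these cells overlapped, with 296, 288 and 337 CPM after placebo and 112, 336 and 162 CPM after EPO. Depth differed too, with a median of 3972, 3469.5 and 3306 UMIs per GABAergic-like cell in placebo mice 1, 3 and 5. In EPO mice 2, 4 and 6 it was 2274.5, 3567.5 and 2434 UMIs. Dlx1 was found in 27.5% of GABAergic-like cells at or below the median depth and 61.5% above it. The part of depth in the difference was not tested.

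UMIs summed over all retained cells of a mouse, where fewer GABAergic cells and less RNA per cell cannot be told apart, varied most between placebo mice. Gad2 was at 14.7, 29.9 and 216 CPM in placebo mice 1, 3 and 5 and at 33.8, 115 and 99.3 CPM in EPO mice 2, 4 and 6. Gad1 was at 16.3, 3.74 and 131 CPM, and at 30.2, 54.4 and 43.6 CPM. For both, placebo mouse 5 was the highest of the 6 and the other placebo mice were the lowest. The log2 fold change of EPO over placebo was -0.16 (SE 0.77) for Gad2 and -0.43 (SE 0.71) for Gad1, with an adjusted p of 1.00 in edgeR's quasi-likelihood test over 10551 genes for both. Slc32a1, at 5.43, 0 and 37.8 CPM after placebo and 8.0, 34.4 and 12.8 CPM after EPO, had a log2 fold change of 0.09 (SE 0.78).

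The lineage genes gave the same picture. Dlx6os1 was at 11.6, 22.5 and 69.4 CPM in placebo mice 1, 3 and 5 and at 45.4, 43.2 and 28.8 CPM in EPO mice 2, 4 and 6 (log2 fold change 0.07, SE 0.52). Dlx1 was at 6.98, 7.48 and 26.3 CPM and at 3.56, 21.9 and 7.05 CPM (-0.40, SE 0.68). Adarb2 was at 13.2, 37.4 and 48.5 CPM and at 32.9, 19.5 and 11.5 CPM (-0.63, SE 0.52). Without the shared barcodes the log2 fold change of Dlx1 was -0.62. Lhx6, which was not tested, was at 1.55, 3.74 and 4.05 CPM and at 0, 3.72 and 3.20 CPM. Of the 6 genes tested 0 passed 5% after Benjamini-Hochberg adjustment and 0 had an unadjusted p under 0.05, in edgeR as in limma and DESeq2, beside 0% of the 10551 genes called by edgeR and 138 genes with an unadjusted p under 0.05. Their median log2 fold change was -0.28, beside -0.01 over all genes tested. Without placebo mouse 5 the log2 fold changes of Slc32a1, Gad2, Gad1 and Dlx6os1 were 2.07, 2.05, 1.61 and 1.37, with edgeR's adjusted p of 0.470 for Slc32a1 and 0.427 for the other 3.

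Placebo mouse 5 stood apart through its GABAergic-like cells. The 7 genes together were at 534 CPM in this mouse and at 69.8 to 292 CPM in the other 5. Its 23 GABAergic-like cells held 6774 CPM of the 7 genes, against 2536 to 5091 CPM in those of the other mice, and a median of 13 such UMIs per cell against 8 to 13.5. A single cell held 160 of its 784 such UMIs. In EPO mouse 4 a single cell held 184 of 565, and in placebo mouse 3 one of its 2 GABAergic-like cells held all 23.

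Genes of the handling of GABA and glutamine were tested in the same fit. Of 9, 7 had enough UMIs, 0 passed 5% in edgeR's test after adjustment over all genes, 4 were higher and 3 lower after EPO, and the median log2 fold change was 0.00. Slc38a1, a glutamine transporter gene, had a log2 fold change of 0.00 (SE 0.28). Glul, which encodes the glutamine synthetase of astrocytes, had one of -0.76 (SE 0.54). The 1 gene of this list with an unadjusted p under 0.05 was Aldh5a1, of GABA breakdown, at 0.74 (SE 0.31, adjusted p 1.00 in edgeR's test).

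Further interneuron transcription factors and subtype markers did not pass either. Of 18 factor genes, 16 had a row, 9 were tested, 0 passed 5% in edgeR's test, and 3 had an unadjusted p under 0.05, Satb1, Etv1 and Prox1 (log2 fold change -1.0, SE 0.43). Of these factors Zeb2 (log2 fold change -0.08), Maf (0.30), Satb1 (0.62, adjusted p 1.00) and Etv1 (0.68, adjusted p 1.00) had the most UMIs. Satb1 and Etv1 were found in 13.9% and 23.0% of the cells outside the GABAergic-like class, so that their sums over all cells are not values of interneurons. Of 14 subtype markers, 9 were tested, 0 passed 5%, and the median log2 fold change was 0.07. Those with the most UMIs, Cck (0.07), Cnr1 (-0.63), Kit (-0.32) and Lamp5 (0.49), were likewise found in 9.47% to 38.6% of other cells. Sst alone had an unadjusted p under 0.05 in this list, with a log2 fold change of 2.31 (SE 1.03, adjusted p 1.00 in edgeR's test). It was at 3.88, 0 and 8.77 CPM in placebo mice 1, 3 and 5 and at 1.78, 65.1 and 14.1 CPM in EPO mice 2, 4 and 6, so that the groups overlapped and EPO mouse 4 stood far above the rest.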

How the data were processed

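UMI counts were used as deposited by the authors, raw and without normalization, for 20234 genes and 6000 barcodes (1000 from each of 6 mice), and a missing value was counted as 0. The submitters' processing notes name bcl2fastq 2.15, STAR 2.4.0 and the build mm10; whether counting used strand is not given in the sources used here. Retained barcodes were log-normalized to 10000, integrated between treatments by canonical correlation analysis (1000 variable genes per treatment, the 7 genes left out, 20 dimensions) and clustered at resolution 1 in Seurat 5.3.0 (R 4.3.3). A cluster took the name of the type with the highest mean ratio of its markers to the other cells, among types with at least 3 markers in 10% of its cells. Scrublet (scanpy 1.11.5) called 1 to 5 doublets per mouse, none of them GABAergic-like, and these were kept. Thinning drew 800 UMIs per cell and dropped shallower cells, 1 GABAergic-like and 3 glutamatergic-like.

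Shares per mouse were compared by two-sided exact permutation tests. UMI counts summed per mouse were tested by edgeR 4.0.16 (glmQLFit, TMM, filterByExpr, Benjamini-Hochberg at 5%), and limma 3.58.1 and DESeq2 1.42.0 were alternatives, all tested on simulated data. CPM are scaled to 1000000 UMIs of the same cells, where a UMI stands for 1 captured poly(A) end, so gene length does not enter. Shares have exact 95% intervals, and a count of 0 allows up to 3 counts. Named genes are the 7, list genes that passed 5% or otherwise the 4 per list with most UMIs, and the 10 of highest phi, of which some are not reported here; the genes set beside Lhx6 and Adarb2, and Dlx6, were chosen after their values were seen. The 7 genes and the lists were chosen with earlier results of these data known. Positions are from GENCODE vM21. Alternatives covered normalization, filters, test, D number, depth, clustering, doublets and each mouse left out.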

Additional observations from a re-analysis of the deposited data

Results flagged for a closer look

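The difference between EPO and placebo pointed in opposite directions in D1 and D2 for 3 measures, with every EPO mouse above every placebo mouse in D1 and below the placebo mouse in D2. D1 holds 1 EPO mouse and D2 1 placebo mouse, and the difference between them was not tested. For the share of GABAergic-like cells it was 1.75 percentage points in D1 and -1.74 in D2. For the share of cells in which 2 or more of the 7 genes were detected it was 1.55 and -1.56, and for the share of cells with a Dlx6os1 UMI it was 0.939 and -1.76. Among GABAergic-like and glutamatergic-like cells alone, the GABAergic-like shares overlapped in D1. They were 4.58% and 7.14% in placebo mice 1 and 3 and 6.71% in EPO mouse 2.

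Barcodes that were not retained also held UMIs of the 7 genes, above the 3 that a count of 0 allows. There were 193 in barcodes with at most 500 genes (137 CPM) and 65 in barcodes dropped for their mitochondrial share (174 CPM). Of the 65, Gad2 held 22 and Dlx6os1 20.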

How the results depend on the processing

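In edgeR's test 21 genes passed 5% without a filter beyond 1 UMI and 1, Rarres2, passed in DESeq2, against 0, and none of them was 1 of the 7. The difference in the share of GABAergic-like cells turned to -0.452 percentage points with more than 1000 genes per cell and was 0.0076 as the mean of the differences within D1 and D2. Under the other alternatives run it was 0.251 to 2.77. Clustering the cells with more than 1000 genes anew put mural and GABAergic cells into 1 cluster, so that setting keeps the classes of all retained cells. Thinned to 800 UMIs, 60.3% of GABAergic-like cells held at least 2 of the genes and 1.42% of glutamatergic-like cells held at least 1, and 1.06% of the latter held at least 2 UMIs of one. The cause was not tested, other than that thinning and the higher count leave fewer UMIs.

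Log2 fold changes that turned were 0.85 for Gad1 and 0.59 for Gad2 in limma, -0.25 for Slc32a1 with the D number as a term, and -0.27 with more than 1000 genes per cell and, without the shared barcodes, -0.076 for Dlx6os1. Leaving out each mouse gave -0.87 to 1.61 for Gad1, -0.70 to 2.05 for Gad2, -0.78 to 2.07 for Slc32a1 and -0.39 to 1.37 for Dlx6os1; Adarb2 stayed below 0, and so did Dlx1 in the fits that could test it, but without placebo mouse 5 or EPO mouse 4 it had too few UMIs to be tested.

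Differences in shares of positive cells that turned were, in percentage points, -0.0955 for Slc32a1 and -0.412 for Dlx6os1 as the mean within D1 and D2, 0.290 for Dlx1 when thinned, and -0.233 for Dlx6os1 and 0.455 for Lhx6 with more than 1000 genes per cell. Leaving out each mouse gave -0.342 to 2.39 for Gad1, -0.399 to 1.64 for Slc32a1, -0.784 to 0.541 for Dlx1, -0.533 to 1.89 for Dlx6os1, -0.514 to 0.227 for Lhx6 and -0.698 to 0.252 for Adarb2, while Gad2 stayed above 0. The mice of the 2 groups carry different numbers in the labels, so no block by replicate number could be fitted, and the D number, which both groups share, was used as a term instead. With 79 GABAergic-like cells, 2 of them in placebo mouse 3, depth limits every value within the class.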
